A study of Mus musculus with 12 samples.

Results

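The genes described here are Slc2a1, which encodes the glucose transporter GLUT1, and 9 genes of the enzymes that carry glucose through to lactate: Hk1, Hk2, Gpi1, Pfkl, Aldoa, Pgk1, Eno1, Pkm and Ldha. They were found by gene symbol in the deposited expression table of the Runx3 experiment, and all 10 were present among its 17536 genes. The table holds 12 RNA-seq libraries of chondrocytes from 5-day-old mice, with 3 libraries for each of 4 groups. The mice were of the C57BL/6 background, given as C57BL/6J in the study's methods. All mice were homozygous for a floxed Runx3 allele (Runx3 fl/fl). R3-Cntl mice carried that allele alone, and R3-cKO littermates (Col2a1-Cre; Runx3 fl/fl) also carried Cre recombinase driven by the Col2a1 promoter, which is active in chondrocytes. Superficial zone (SFZ) cells were released from the ends of the femur and tibia by trypsin and type I collagenase, and deep zone (DZ) cells by a further, longer collagenase digestion, so that a zone is defined by the order of release. The study describes plating of such cells on fibronectin and growth as a monolayer in medium with serum. The levels are therefore read as those of cultured cells, and the time and oxygen level in culture are not given in the sources used here. The values are treated as FPKM, a fragment number divided by the length of the transcript and the depth of the library, with TMM scaling between libraries. This unit was inferred from the values.

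Glycolysis converts glucose to pyruvate in the cytosol with a net yield of ATP, and lactate dehydrogenase then reduces pyruvate to lactate and regenerates NAD+. Glucose enters through facilitative transporters, and hexokinase and phosphofructokinase catalyse steps that are close to irreversible and are major points of control. Cartilage has no blood vessels, and its chondrocytes live at low oxygen and make much of their ATP by glycolysis.

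Runx3 itself was read first. Among SFZ cells, R3-Cntl libraries 1 to 3 read 10.73, 5.98 and 6.65 FPKM, and R3-cKO libraries 1 to 3 read 11.83, 9.07 and 3.42 FPKM. Among DZ cells, the R3-Cntl libraries read 12.67, 12.65 and 7.66 FPKM, and the R3-cKO libraries read 15.95, 12.66 and 8.14 FPKM. The groups overlapped in both zones, and the transcript level of Runx3 was not lower in the libraries labelled R3-cKO. The R3-cKO minus R3-Cntl difference was -0.04 (SE 0.43) on the log2(FPKM + 1) scale in SFZ (exact two-sided permutation p = 1) and 0.13 (SE 0.28) in DZ (exact permutation p = 0.6). Within pairs of DZ libraries of the same number R3-cKO was higher in 3 of 3, by 3.28, 0.01 and 0.48 FPKM, and with the number as a block the difference of Runx3 had an SE of 0.09 (unadjusted p = 0.219). With 3 libraries against 3 the smallest possible p is 0.1. A value per gene does not show whether the floxed part of the transcript is missing, and genotype is given below as labelled.

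The zone labels were compared with marker genes. Calls in gene lists are counted here and below only for genes that reached 1 FPKM in 3 or more libraries of each zone, a rule chosen after the values were seen. Genes that entered the fit through 1 zone alone are given by their levels. Among all genes so counted, 4.14% were higher in DZ than in SFZ at an adjusted p under 0.05 and 17.3% were lower. Of 13 chondrocyte markers 11 were higher and 0 were lower. Their summed level, of which Col2a1 was the most abundant, ran from 5590 to 17421 FPKM in SFZ libraries and from 17210 to 39676 FPKM in DZ libraries. Of 8 superficial zone and fibroblast markers counted, 6 were lower in DZ and 0 were higher. Dcn of this list went the other way without passing, at a mean of 161 FPKM in SFZ and 352 FPKM in DZ (log2 difference 1.19, SE 0.40, adjusted p = 0.0507). The sum of all 11, led by Col1a1, ran from 4018 to 11922 FPKM in SFZ and from 442 to 2686 FPKM in DZ. Prg4 encodes lubricin and marks the articular surface. Over both genotypes it ranged from 2.13 to 22.24 FPKM in SFZ and from 1.22 to 5.72 FPKM in DZ, and did not pass (log2 difference -1.32, SE 0.46, adjusted p = 0.0576). In R3-Cntl alone it ran from 7.13 to 22.24 FPKM in SFZ and from 1.22 to 1.47 FPKM in DZ (-2.36, SE 0.38, adjusted p = 0.0485). In R3-cKO the zones overlapped (-0.27, SE 0.51, adjusted p = 0.880). Within SFZ every R3-cKO library had less Prg4 than every R3-Cntl library, though the difference did not pass (-1.45, SE 0.52, adjusted p = 0.9997). The sum of 8 macrophage markers, led by Lyz2, ran from 6.65 to 171 FPKM in SFZ and from 3.30 to 22.8 FPKM in DZ. Of these markers 5 entered the fit only through SFZ, and 2 of the 2 counted, Lyz2 and Cd68, were lower in DZ. Bglap was lower among 8 hypertrophic and bone markers, and 0 of 2 skeletal muscle and 0 of 2 keratinocyte markers counted differed. Summed endothelial markers reached at most 5.77 FPKM, erythroid markers 0.23 FPKM and keratinocyte markers 8.0 FPKM in any library.

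SFZ libraries of one genotype did not have the same marker content, and 2 of them stood apart in their chondrocyte and fibroblast sums. R3-Cntl SFZ library 2 had a chondrocyte sum of 5590 FPKM, against 17421 and 10524 FPKM in libraries 1 and 3. Its superficial zone and fibroblast sum was 8409 FPKM, against 4349 and 4670 FPKM, and its sum of 11 skeletal muscle markers was 161.6 FPKM, against 9.21 and 8.44 FPKM. R3-cKO SFZ library 3 had the lowest chondrocyte sum of its group, 6480 FPKM, against 14882 and 8669 FPKM in libraries 1 and 2. Its superficial zone and fibroblast sum was 11922 FPKM, against 4504 and 4018 FPKM. The muscle transcripts Acta1 and Mylpf measured 38.03 and 40.23 FPKM in R3-Cntl SFZ library 2. Other SFZ libraries differed in the macrophage transcript Lyz2, at 3.56 FPKM in R3-Cntl library 3 and 8.26 FPKM in R3-cKO library 2. It ran from 43.53 to 126.78 FPKM in the remaining SFZ libraries. Col10a1, a hypertrophic marker, was 254.69 FPKM in R3-cKO SFZ library 2, against 3.67 to 74.51 FPKM in the rest of SFZ. In DZ, library 3 of each genotype had the highest superficial zone and fibroblast sum of its group, at 2686 FPKM for R3-Cntl and 2032 FPKM for R3-cKO.

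The levels of the 10 genes also varied among these libraries. Their summed level in R3-Cntl SFZ libraries 1 to 3 was 2746, 2171 and 2858 FPKM, and in R3-cKO SFZ libraries 1 to 3 it was 2504, 3391 and 1693 FPKM. For DZ the sums were 4346, 4671 and 3120 FPKM with R3-Cntl, and 3744, 3668 and 3589 FPKM with R3-cKO. Within SFZ, R3-cKO library 3 gave the lowest value for 7 of the 10 genes and R3-Cntl library 2 for the other 3, so the lowest values came from the libraries with the fewest chondrocyte transcripts and the most fibroblast transcripts. R3-cKO SFZ library 2, which had the highest glycolytic sum in SFZ, did not have the highest chondrocyte sum. Within DZ, R3-Cntl library 3 was lowest for 8 of the 10 genes. In bulk samples fewer cells of a type and less RNA per cell cannot be told apart, and the part of cell content in the differences below was not tested.

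**Figure D1:**
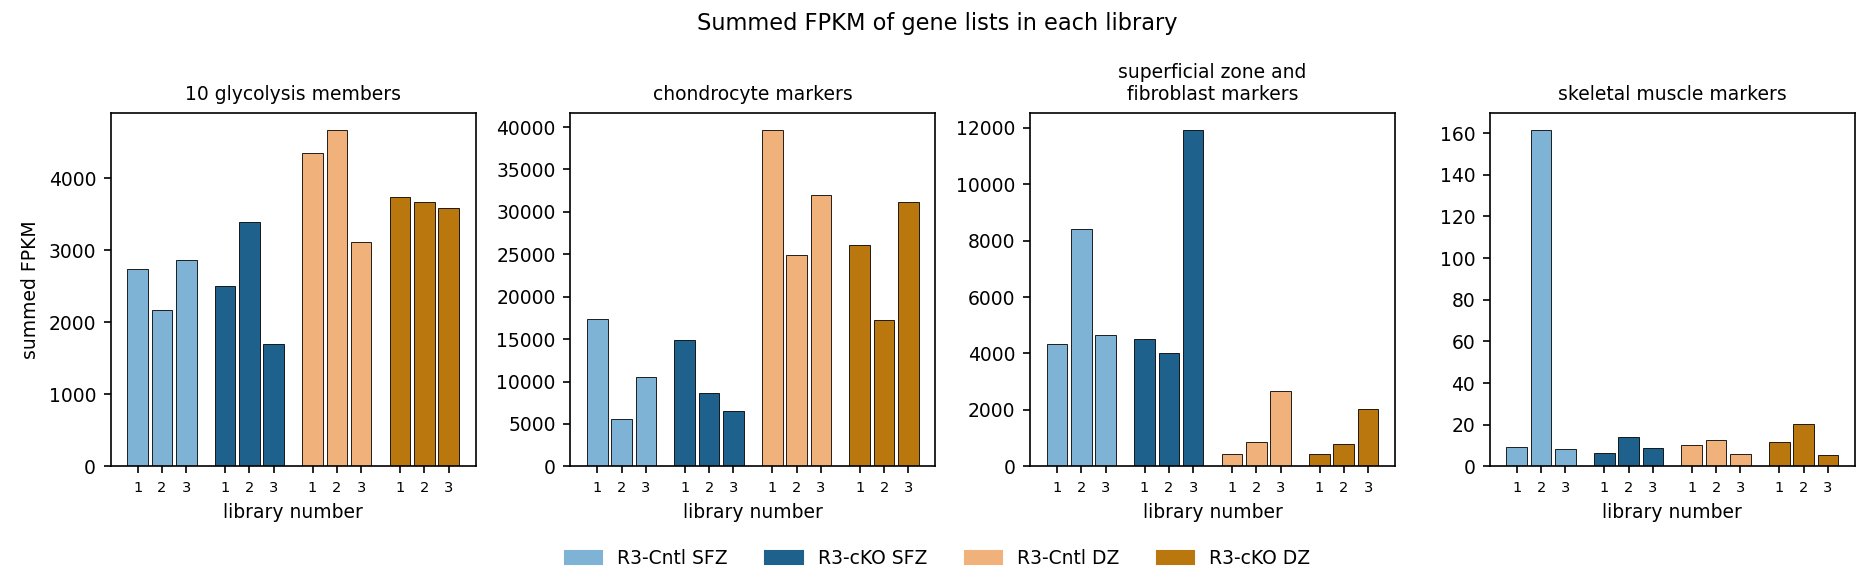
Bars give the summed FPKM of the 10 glycolysis genes, the chondrocyte markers, the superficial zone and fibroblast markers and the skeletal muscle markers in each of the 12 libraries, on axes that start at 0. R3-Cntl SFZ library 2 and R3-cKO SFZ library 3 have the lowest sums of the glycolysis genes, 2171 and 1693 FPKM, and the highest fibroblast sums, 8409 and 11922 FPKM.

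Read counts were not used, and the spacing of low values gave a rough estimate of 26000000 to 30300000 fragments per library. At that depth Hk2, the lowest of the 10 genes, would rest on about 597 fragments in R3-cKO SFZ library 3 and about 2961 in R3-Cntl DZ library 1.

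Levels per length differed widely between the 10 genes. Over the 12 libraries Eno1 was highest, with a mean of 915 FPKM, followed by Pkm at 579.5, Aldoa at 566, Ldha at 537 and Pgk1 at 352 FPKM. Gpi1 averaged 111 FPKM, Slc2a1 64.2, Pfkl 42.8, Hk1 29.6 and Hk2 11.04 FPKM. The enzymes from aldolase to lactate dehydrogenase were thus present at higher transcript levels than the transporter, the hexokinases and phosphofructokinase. This order is pooled over zones. In SFZ the means were 511 FPKM for Pkm, 500 for Aldoa and 413 for Ldha, and in DZ they were 662 for Ldha, 648 for Pkm and 632 for Aldoa. Pkm exceeded Ldha in 6 of 6 SFZ libraries, whereas Ldha exceeded Pkm in 5 of 6 DZ libraries. Several of these genes, among them Eno1, Pgk1, Aldoa and Ldha, have near-identical processed copies in the genome. The treatment of reads that map to several places is not given in the sources used here, so their levels carry that uncertainty.

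**Figure D2:**
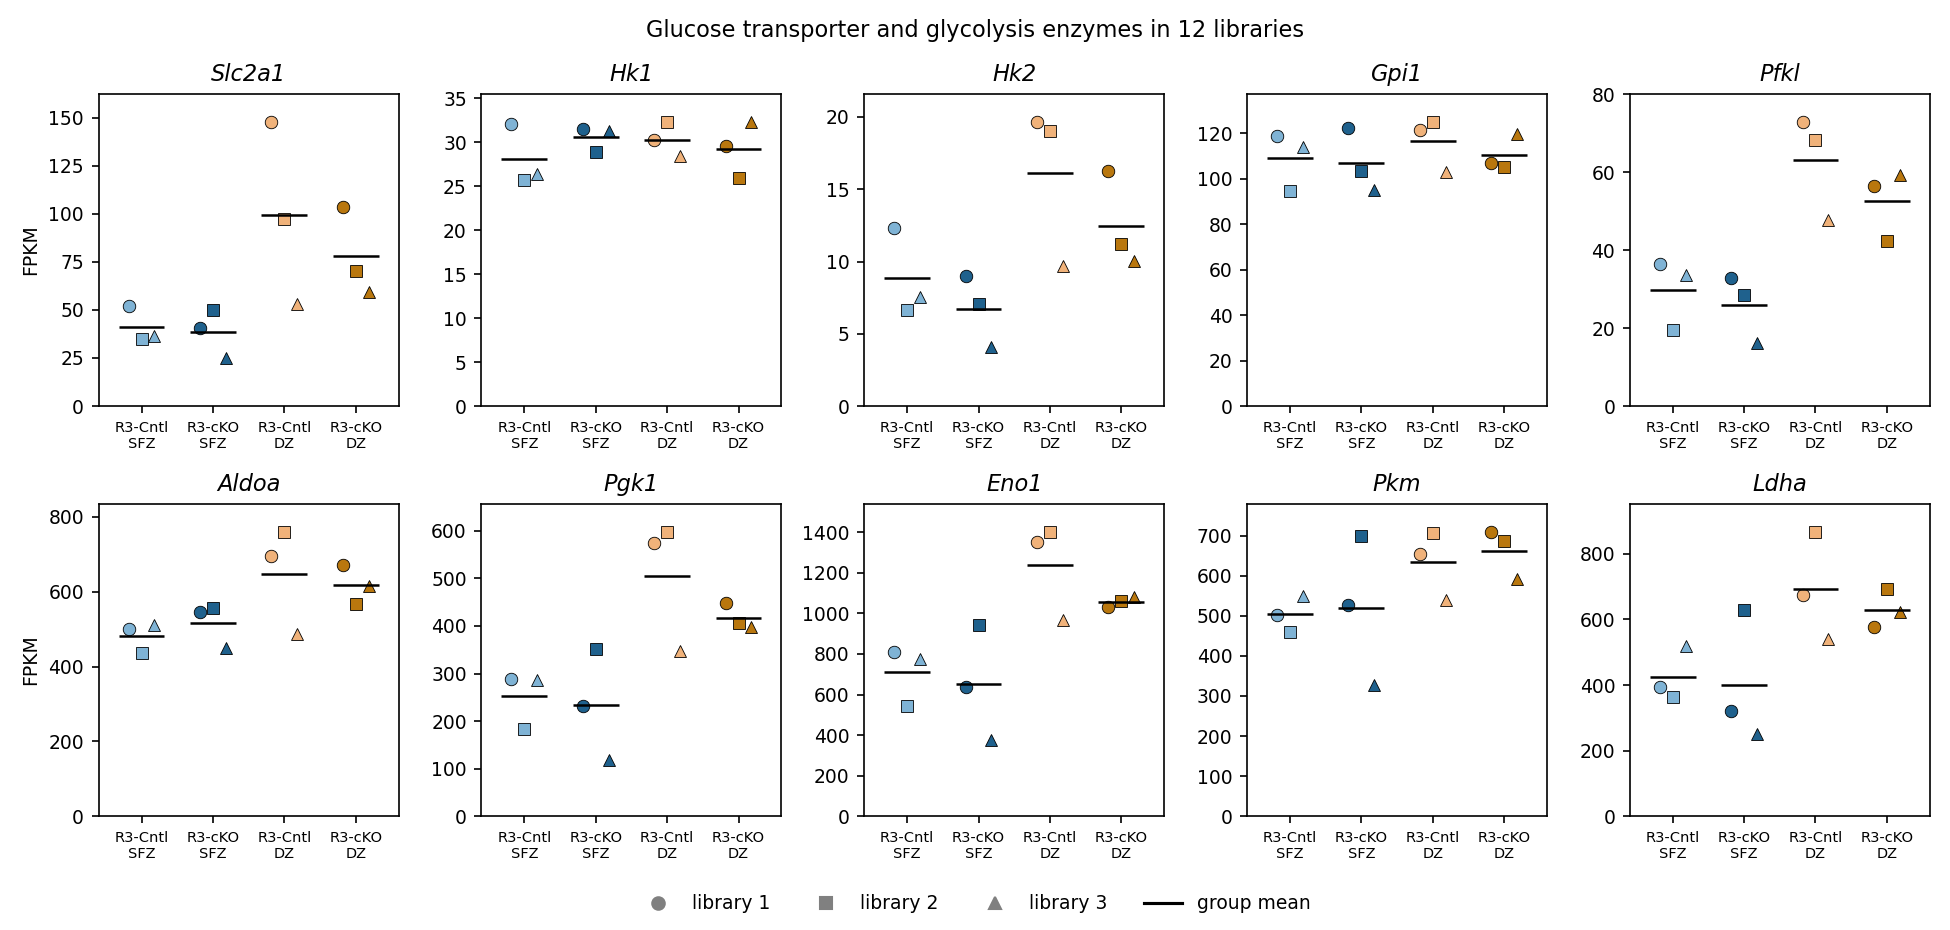
Each panel gives the FPKM of 1 gene in the 3 libraries of each group, with a symbol for the library number, a line for the group mean and an axis that starts at 0. Slc2a1, Pfkl and Eno1 have every DZ library above every SFZ library, whereas the groups overlap for Hk1, from 25.77 to 32.33 FPKM, and Gpi1, from 94.44 to 124.93 FPKM.

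In the comparison of DZ with SFZ over both genotypes, 6 of the 10 genes were higher in DZ at an adjusted p under 0.05 and 0 were lower. Among all 11765 genes tested 4.30% were higher, 506 in number, and 18.9% were lower, 2219 in number. Among the 10953 genes that reached 1 FPKM in 3 libraries of each zone, which include all of the 10, 4.14% were higher and 17.3% lower. For 3 of the 10 every DZ library lay above every SFZ library, which held for 1.64% of all genes, and 9.71% lay wholly below. The 6 genes were Slc2a1, Hk2, Pfkl, Pgk1, Eno1 and Ldha, and Hk1, Gpi1, Aldoa and Pkm did not pass. The median difference of the 10 genes was 0.76 on the log2(FPKM + 1) scale, whereas the median of all genes was -0.14. Quantile normalization moved the median of all genes to 0.04 and that of the 10 genes to 0.84, and size factors moved them to 0.00 and 0.92. The split of all calls moved to 1238 higher and 864 lower with quantile normalization and to 1053 and 1088 with size factors. Differences are on the log2(FPKM + 1) scale throughout, which understates the fold of low genes. They are from limma with Benjamini-Hochberg adjustment over all genes tested.

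Slc2a1, the transporter through which glucose enters many cell types, lies at chr4:118781316-118809935 on the plus strand of mm9. Among SFZ cells, R3-Cntl libraries 1 to 3 read 52.0, 35.06 and 36.65 FPKM for Slc2a1, and R3-cKO libraries 1 to 3 read 40.8, 49.7 and 24.92 FPKM. Among DZ cells, the R3-Cntl libraries read 147.73, 97.31 and 53.17 FPKM for Slc2a1, and the R3-cKO libraries 103.45, 70.31 and 59.52 FPKM. All 6 DZ libraries lay above all 6 SFZ libraries, with R3-Cntl DZ library 3 only just above the highest SFZ library. The means were 39.9 ± 10.02 FPKM in SFZ and 88.6 ± 35.3 FPKM in DZ (SD, n = 6 each), a ratio of 2.22. The log2 difference was 1.08 (SE 0.25, adjusted p = 0.0121), and exact permutation (two-sided) gave p = 0.005, the smallest that the 400 arrangements within genotype allow.

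The hexokinases phosphorylate glucose as it enters the cell, and the pair measured here behaved differently. Hk1, the form found in most tissues, ranged from 25.77 to 32.33 FPKM over all 12 libraries, a coefficient of variation of 8.41%. It averaged 29.3 ± 2.76 FPKM in SFZ and 29.8 ± 2.43 FPKM in DZ (SD, n = 6 each), a log2 difference of 0.02 (SE 0.08, adjusted p = 0.866). Hk2, an inducible form, stood at 12.31, 6.67 and 7.56 FPKM in R3-Cntl SFZ libraries 1 to 3 and at 9.0, 7.09 and 4.05 FPKM in their R3-cKO counterparts. For DZ cells the R3-Cntl libraries gave Hk2 values of 19.66, 19.01 and 9.72 FPKM, and the R3-cKO libraries gave 16.26, 11.18 and 10.02 FPKM. Both DZ libraries numbered 3, and R3-cKO DZ library 2, lay below R3-Cntl SFZ library 1, so the zones overlapped. The Hk2 means were 7.78 ± 2.75 FPKM in SFZ and 14.3 ± 4.56 FPKM in DZ (SD, n = 6 each), with a log2 difference of 0.81 (SE 0.23, adjusted p = 0.0260) and an exact permutation p of 0.02.

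Gpi1, which converts glucose 6-phosphate to fructose 6-phosphate, ranged from 94.44 to 124.93 FPKM over the 12 libraries with a coefficient of variation of 9.73%. Its log2 difference between zones was 0.08 (SE 0.09, adjusted p = 0.576). Pfkl encodes the liver-type subunit of phosphofructokinase, which commits fructose 6-phosphate to glycolysis. It stood at 36.31, 19.56 and 33.56 FPKM in R3-Cntl SFZ libraries 1 to 3 and at 32.78, 28.44 and 16.19 FPKM in their R3-cKO counterparts. For DZ cells the R3-Cntl libraries gave Pfkl values of 72.88, 68.34 and 47.79 FPKM, and the R3-cKO libraries gave 56.32, 42.42 and 59.27 FPKM. Every DZ library exceeded every SFZ library, and the lowest SFZ values were those of the libraries that stood apart. The means were 27.8 ± 8.17 FPKM in SFZ and 57.8 ± 11.7 FPKM in DZ (SD, n = 6 each), a ratio of 2.08. The log2 difference of Pfkl was 1.06 (SE 0.20, adjusted p = 0.00511; exact permutation p = 0.005).

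Aldoa, the aldolase that splits fructose 1,6-bisphosphate, ranged from 435.23 to 555.95 FPKM in SFZ and from 486.05 to 759.27 FPKM in DZ. Its log2 difference was 0.33 (SE 0.12, adjusted p = 0.0683), which did not pass. Pgk1 makes ATP from 1,3-bisphosphoglycerate. It stood at 288.62, 183.67 and 286.52 FPKM in R3-Cntl SFZ libraries 1 to 3 and at 232.51, 350.62 and 118.54 FPKM in their R3-cKO counterparts. For DZ cells the R3-Cntl libraries gave Pgk1 values of 574.39, 597.03 and 346.25 FPKM, and the R3-cKO libraries gave 447.66, 405.66 and 396.87 FPKM. The zones met only where R3-Cntl DZ library 3 lay just under R3-cKO SFZ library 2, and the other 5 DZ libraries lay above all SFZ libraries. The log2 difference of Pgk1 was 0.97 (SE 0.24, adjusted p = 0.0162; exact permutation p = 0.005).

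Eno1, which forms phosphoenolpyruvate, stood at 810.81, 545.84 and 775.79 FPKM in R3-Cntl SFZ libraries 1 to 3 and at 637.78, 940.53 and 374.84 FPKM in their R3-cKO counterparts. For DZ cells the R3-Cntl libraries gave Eno1 values of 1354.05, 1400.26 and 968.03 FPKM, and the R3-cKO libraries gave 1029.67, 1061.77 and 1082.15 FPKM. The zones did not overlap, and the closest pair were R3-Cntl DZ library 3 and R3-cKO SFZ library 2. The log2 difference was 0.80 (SE 0.20, adjusted p = 0.0171; exact permutation p = 0.005). Pkm, which encodes pyruvate kinase, ranged from 328.07 to 699.14 FPKM in SFZ and from 538.72 to 708.43 FPKM in DZ. Its log2 difference of 0.37 (SE 0.16, adjusted p = 0.121) did not pass, and a gene-level value does not separate its M1 and M2 splice forms.

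Ldha encodes the lactate dehydrogenase subunit that predominates in tissues producing lactate. It stood at 393.25, 364.3 and 517.78 FPKM in R3-Cntl SFZ libraries 1 to 3 and at 322.29, 627.45 and 250.39 FPKM in their R3-cKO counterparts. For DZ cells the R3-Cntl libraries gave Ldha values of 675.26, 865.91 and 539.19 FPKM, and the R3-cKO libraries gave 575.93, 691.57 and 622.67 FPKM. The zones overlapped through R3-cKO SFZ library 2, which exceeded 3 of the 6 DZ libraries. The log2 difference was 0.73 (SE 0.21, adjusted p = 0.0281; exact permutation p = 0.02).

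The calls depended in part on the libraries that stood apart, 1 or the other of which gave the lowest SFZ value of each gene. With R3-Cntl SFZ library 2 and R3-cKO SFZ library 3 both left out, an alternative chosen after seeing the data, Pfkl alone of the 10 genes passed (log2 difference 0.78, adjusted p = 0.0125). Calls among all genes fell from 2725 to 986 in that fit, which had 2 fewer libraries. Slc2a1 then had a difference of 0.89 (adjusted p = 0.0736), Pgk1 0.66 (adjusted p = 0.0524) and Eno1 0.54 (adjusted p = 0.0556). Hk2 had 0.59 (adjusted p = 0.128) and Ldha 0.54 (adjusted p = 0.129). With 1 library left out at a time, Slc2a1, Pfkl, Pgk1 and Eno1 passed in each of the 12 fits, where calls among all genes numbered 1624 to 2899. Hk2 lost its call in 6 of those fits, at adjusted p from 0.0501 to 0.0671. These were the fits without R3-Cntl SFZ library 2 or 3, R3-cKO SFZ library 3, R3-Cntl DZ library 1 or 2, or R3-cKO DZ library 1. Ldha lost its call in 7, at adjusted p from 0.0517 to 0.0696, namely without R3-Cntl SFZ library 1 or 2, R3-cKO SFZ library 1 or 3, R3-Cntl DZ library 1 or 2, or R3-cKO DZ library 3. Aldoa passed without R3-Cntl DZ library 3 (0.41, adjusted p = 0.0239) and Pkm without R3-cKO SFZ library 2 (0.48, adjusted p = 0.0372). Quantile normalization added Aldoa (adjusted p = 0.0213), and size factors added Aldoa (adjusted p = 0.0179) and Pkm (adjusted p = 0.0367).

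**Figure D3:**
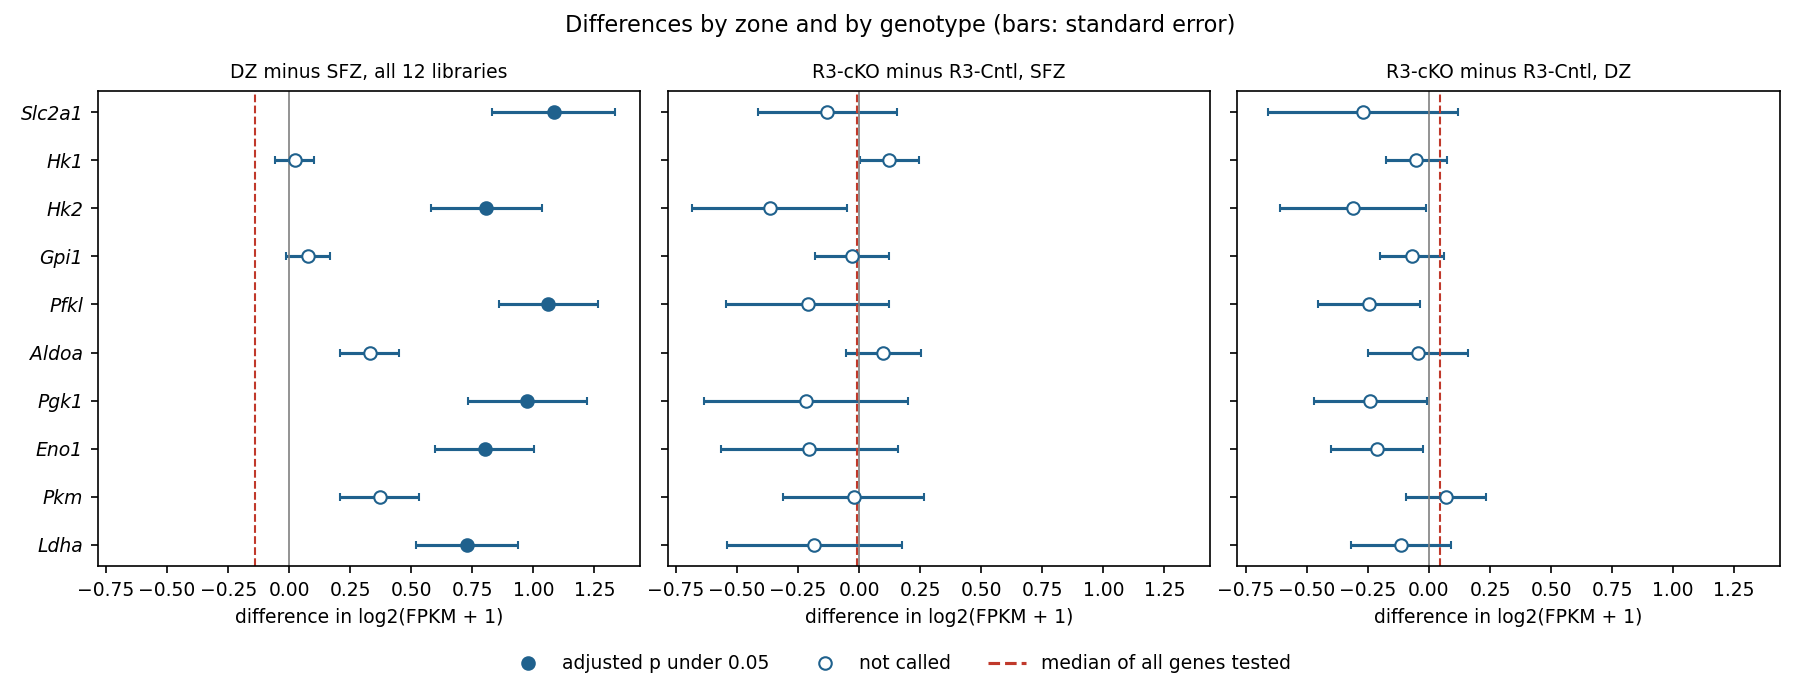
Points give the difference in log2(FPKM + 1) of each gene between zones over all 12 libraries and between genotypes within each zone, with bars for the standard error and a dashed line for the median of all genes tested. Filled points, found only in the zone comparison, mark the 6 genes with an adjusted p under 0.05.

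Within a single genotype the same comparison had 3 libraries a zone. In R3-Cntl mice 0 of the 10 genes passed the adjusted threshold, where 0.150% of 11336 genes were higher in DZ. At an unadjusted p under 0.05, 3102 genes differed in either direction, and 1502 to 3270 with 1 library left out. Of the 10, 6 were higher and 0 lower at that p, where 4.94% of all genes were higher. With 1 library left out it was 3 to 8 of the 10. The log2 differences of these 6 were 1.15 for Slc2a1 (SE 0.37), 0.78 for Hk2 (SE 0.32), 1.08 for Pfkl (SE 0.27), 0.99 for Pgk1 (SE 0.28), 0.81 for Eno1 (SE 0.24) and 0.69 for Ldha (SE 0.23). Their adjusted p lay between 0.0806 and 0.173. The split of all calls, 17 higher and 123 lower, was 0 and 4 with quantile normalization and 4 and 13 with size factors. In the libraries labelled R3-cKO 0 of the 10 passed the adjusted threshold, and 0% of all genes were higher at it. At an unadjusted p under 0.05, 4 of the 10 were higher, where 3.03% of all genes were, and with the replicate number as a block 6 of the 10 were, where 7.20% of all genes were. In either direction 1602 genes had such a p, 3396 with the block and 885 to 2193 with 1 library left out, where 1 to 7 of the 10 were higher. The log2 differences there were 1.01 for Slc2a1, 0.83 for Hk2, 1.04 for Pfkl and 0.96 for Pgk1, and the other called genes of the pooled comparison had 0.80 for Eno1 and 0.76 for Ldha. With the replicate number as a block, 352 genes passed in place of 2, and 1 of the 10, Hk2, was among them (adjusted p = 0.0499), where 0.591% of all genes were higher.

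Between genotypes, which differ by Col2a1-Cre on the floxed Runx3 allele, 0 of the 10 genes differed in either zone by limma. In SFZ 0 of the 10 had an unadjusted p under 0.05, where 0.182% of 11537 genes were higher and 0.113% lower in R3-cKO, and 0 genes passed the adjusted threshold. The number of genes at an unadjusted p in SFZ, 34, was 1204 without R3-cKO SFZ library 2, and Ldha was then among them as the only one of the 10 (-0.56, adjusted p = 0.472), where 6.93% of genes were lower. It was 12 to 101 with any other library left out and 6 without both libraries that stood apart. The log2 differences in SFZ ran from -0.37 for Hk2 (SE 0.32) to 0.12 for Hk1 (SE 0.12). In DZ 0 of the 10 had an unadjusted p under 0.05, where 2.50% of 11091 genes were higher and 1.15% lower, and again 0 genes passed the adjusted threshold. With the replicate number as a block, taken to pair the libraries in DZ, 11.5% of genes were higher and 4.98% lower at an unadjusted p under 0.05, 1830 in place of 404. The lowest adjusted p of any gene was then 0.0587. Still 0 of the 10 had an unadjusted p under 0.05, with values from 0.0961 for Hk2 to 0.798 for Aldoa. Without R3-Cntl DZ library 3, the lowest of its group for most of these genes, Hk2 (-0.62), Pgk1 (-0.49) and Eno1 (-0.38) were lower at an unadjusted p under 0.05, each with an adjusted p of 0.999, where 1.21% of genes were lower and 484 differed in either direction. With 1 library left out the number of genes at an unadjusted p in DZ ran from 211 to 773, and 0 of the 10 were among them in the other 5 fits. Without the block the log2 differences in DZ ran from -0.31 for Hk2 (SE 0.30) to 0.07 for Pkm (SE 0.17). The groups of the genotypes overlapped for all 10 genes in both zones. Over all genes R3-cKO lay wholly above R3-Cntl for 1.45% and wholly below for 0.953% in SFZ, and for 5.26% and 2.78% in DZ, so an overlap of all 10 is near what most genes show. For the 10 genes exact permutation p lay between 0.4 and 1. At an unadjusted p, 21 genes were higher and 13 lower in SFZ and 277 and 127 in DZ, and quantile normalization moved these splits to 42 and 12 and to 234 and 211. The standard errors, up to 0.42 for Pgk1 in SFZ, leave room for differences that 3 libraries a group cannot resolve. The genotype by zone interaction ran from -0.18 for Hk1 to 0.09 for Pkm, with 0 of the 10 genes and 0 of 11765 genes past the adjusted threshold and 99 genes at an unadjusted p under 0.05. The last number was 949 with the replicate block, 36 to 714 with 1 library left out and 22 without both libraries that stood apart. The p-values rest on the spread between libraries. Ddx3y, a gene of the Y chromosome chosen after its values were seen, lay between 0 and 0.02 FPKM in 4 libraries, numbers 2 and 3 of R3-cKO in each zone, and between 4.96 and 21.09 FPKM in the other 8. Its presence was thus not balanced between genotypes, and the part of sex in the genotype differences was not tested.

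Families of isozymes were set beside each other as shares of their summed FPKM within a library, a measure that library scaling does not alter. Pfkl held 53.9, 39.97 and 53.1% of the phosphofructokinase transcripts in R3-Cntl SFZ libraries 1 to 3 and 52.5, 47.2 and 35.7% in the R3-cKO SFZ libraries. In DZ it held 64.88, 64.9 and 56.3% in R3-Cntl and 62.0, 57.1 and 61.6% in R3-cKO. All DZ shares exceeded all SFZ shares. The mean share was 47.1 ± 7.64% in SFZ and 61.1 ± 3.73% in DZ (SD, n = 6 each; exact permutation p = 0.005, adjusted over 6 families p = 0.01). The muscle-type Pfkm and platelet-type Pfkp, which make up the rest, ranged from 13.92 to 23.56 FPKM and from 10.99 to 18.91 FPKM.

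The share of Hk2 among hexokinase transcripts rose from 20.2 ± 5.08% in SFZ to 31.8 ± 6.44% in DZ (SD, n = 6 each; exact permutation p = 0.01, adjusted p = 0.015). Without both libraries that stood apart the gain was 9.27 percentage points (exact permutation p = 0.04, adjusted p = 0.06). Slc2a1 held 97.8% of GLUT1 and GLUT3 transcripts in SFZ and 99.4% in DZ, and Eno1 held 97.6% and 98.9% of the enolases, both with adjusted p = 0.01 by exact permutation. With only Eno1 and the most abundant other enolase the difference was 0.79 percentage points (adjusted p = 0.0525). Aldoa held 98.6% and 99.0% of the aldolases and Ldha 91.0% and 94.3% of the lactate dehydrogenases, which did not pass (adjusted p = 0.63 and 0.426 by exact permutation). Ldhb reached 70.48 FPKM in R3-cKO SFZ library 3, where Ldha held 78.0%, its lowest share. Between genotypes the exact permutation p of the 6 families ran from 0.3 to 0.9 within a zone, where 0.1 is the smallest possible, so no family could have passed.

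**Figure D4:**
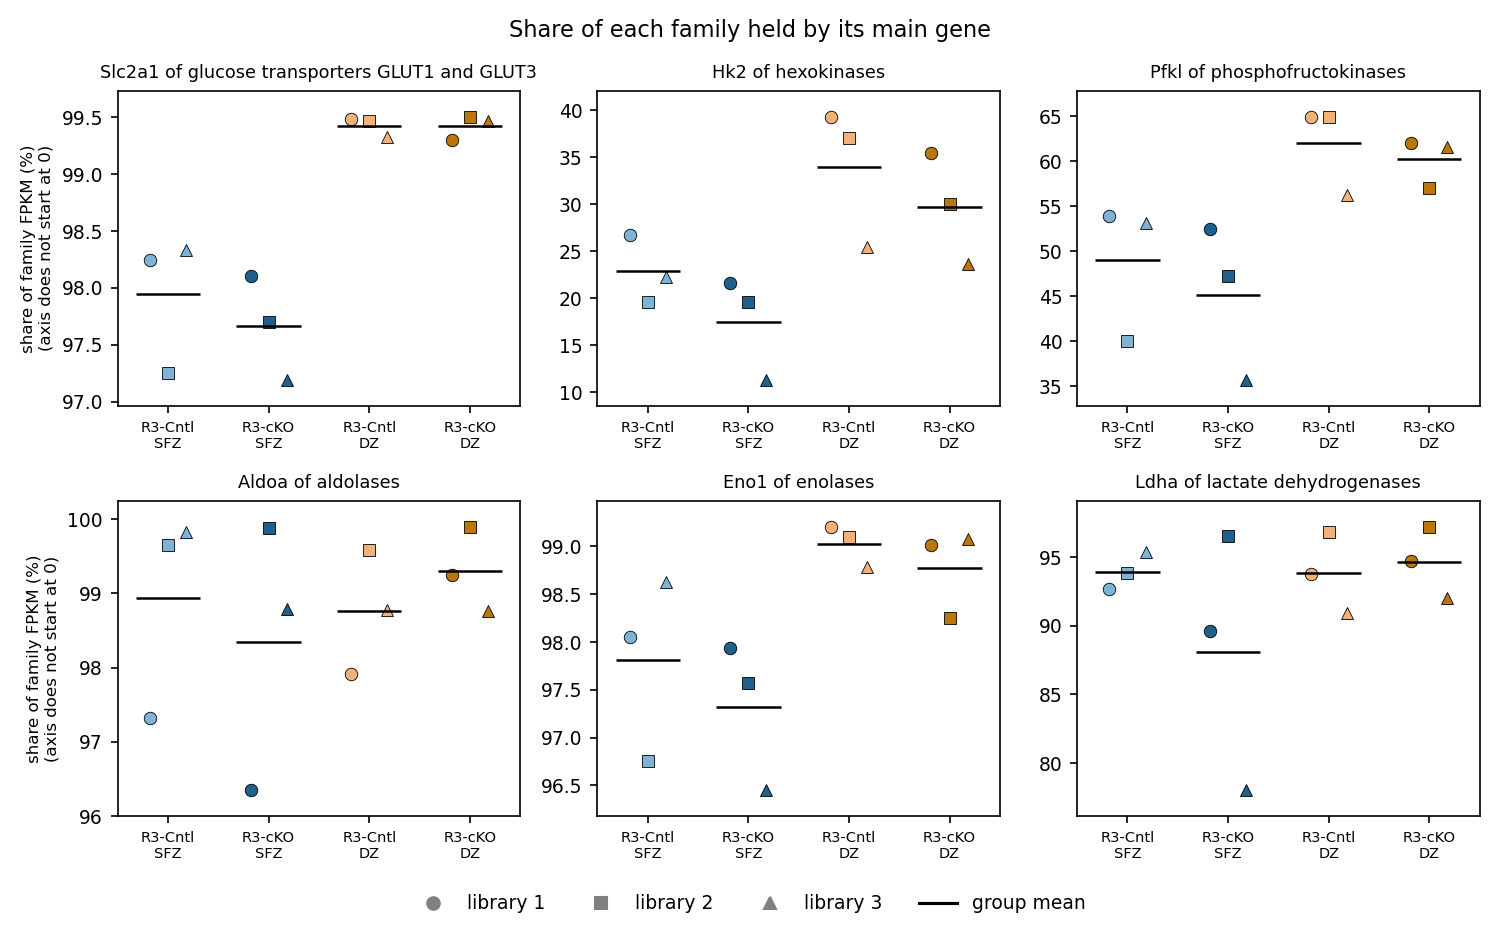
Points give the share, in percent of the summed FPKM of the family, that the named gene held in each of the 12 libraries, with a line for the mean of each group, on axes that do not start at 0. The share of Pfkl lies between 35.7 and 53.9% in SFZ and between 56.3 and 64.9% in DZ.

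The promoters of 3 of the genes that were higher in DZ and of Gpi1, which was not, are printed to show the letters near their start sites. They are from RefSeq on GRCm38.p6, a different build from the gene positions above. Each is the 250 bases before a transcription start, 5′ to 3′ on the strand of the gene. Capitals mark the core recognised by hypoxia-inducible factors, ACGTG or GCGTG, or its reverse complement, CACGT or CACGC. The Slc2a1 window is chr4:119108495-119108744 (plus strand), that of Pfkl is chr10:78009808-78010057 (minus), that of Pgk1 is chrX:106186850-106187099 (plus) and that of Gpi1 is chr7:34230337-34230586 (minus).
Slc2a1: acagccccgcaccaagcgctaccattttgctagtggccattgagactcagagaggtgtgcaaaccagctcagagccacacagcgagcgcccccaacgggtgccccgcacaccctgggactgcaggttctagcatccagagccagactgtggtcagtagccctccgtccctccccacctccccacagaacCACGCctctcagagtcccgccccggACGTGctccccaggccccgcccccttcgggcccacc
Pfkl: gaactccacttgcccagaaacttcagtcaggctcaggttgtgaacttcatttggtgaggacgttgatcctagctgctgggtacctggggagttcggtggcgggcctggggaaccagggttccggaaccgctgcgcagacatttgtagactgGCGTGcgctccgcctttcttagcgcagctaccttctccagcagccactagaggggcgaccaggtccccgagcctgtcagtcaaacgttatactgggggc
Pgk1: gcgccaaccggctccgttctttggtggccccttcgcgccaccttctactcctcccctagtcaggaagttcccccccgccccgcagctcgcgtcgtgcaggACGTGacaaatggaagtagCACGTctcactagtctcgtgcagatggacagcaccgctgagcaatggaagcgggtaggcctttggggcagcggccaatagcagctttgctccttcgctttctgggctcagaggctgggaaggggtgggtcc
Gpi1: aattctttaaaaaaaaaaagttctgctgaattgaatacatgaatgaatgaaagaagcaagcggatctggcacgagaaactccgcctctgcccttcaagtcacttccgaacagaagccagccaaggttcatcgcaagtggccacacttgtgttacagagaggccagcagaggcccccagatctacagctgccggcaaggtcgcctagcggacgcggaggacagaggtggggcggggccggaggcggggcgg

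The core was found in 9 of the 10 genes, all except Gpi1. By promoter it was in 13 of their 17 (76.5%), against 38.6% of all 32851 promoters. Windows of the same gene can overlap, as for Eno1 and Aldoa, so the 17 are not independent and 1 site can be counted more than once. The 38.6% is a share of promoters, and no share of genes is given to set beside the 9 of 10. The core was present in the Slc2a1 window at -61 and -36, in that of Pfkl at -99 and in that of Pgk1 at -150 and -131 from the start. Hk1, Aldoa and Pkm, which did not pass between zones, also had it. The E-box CACGTG, which contains ACGTG and is read by Myc and related factors, was in 1 of the 17 promoters, of Ldha, against 6.02% of all. The Runx letters TGTGGT or TGCGGT, searched on both strands, were in 2 of the 17, of Hk1 and Slc2a1, against 18.6% of all. A match of letters is a description of the sequence and not a binding site.

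The other genes of glycolysis and its branches were read by the same comparison of DZ with SFZ. Of 11 other glycolysis genes counted, 2 were higher in DZ and 0 were lower. For this list and those below, 4.14% of all genes so counted were higher and 17.3% lower. Tpi1, which interconverts the triose phosphates, averaged 200 ± 47.2 FPKM in SFZ and 343 ± 64.6 FPKM in DZ (SD, n = 6 each; log2 difference 0.79, SE 0.18, adjusted p = 0.0116). Pgam1, phosphoglycerate mutase, averaged 204 ± 45.1 and 335 ± 46.3 FPKM (log2 difference 0.73, SE 0.15, adjusted p = 0.00671). Gapdh, the reference gene of the study's qRT-PCR, did not pass, with a log2 difference of 0.60 (SE 0.22, adjusted p = 0.0695). Its level ran from 861.79 FPKM in R3-cKO SFZ library 3 to 2936.97 FPKM in R3-Cntl DZ library 2. Gapdh passed with size factors, with the replicate block, without R3-cKO SFZ library 2 and without R3-Cntl DZ library 3.

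Slc16a3, of the list for transport of lactate and pyruvate, encodes MCT4, a lactate exporter. It stood at 15.52, 4.61 and 9.75 FPKM in R3-Cntl SFZ libraries 1 to 3 and at 8.06, 11.64 and 1.6 FPKM in their R3-cKO counterparts. For DZ cells the R3-Cntl libraries gave Slc16a3 values of 57.26, 55.47 and 31.31 FPKM, and the R3-cKO libraries gave 30.12, 29.83 and 36.57 FPKM. The lowest DZ library was well above the highest SFZ library. The log2 difference was 2.28 (SE 0.37, adjusted p = 0.00271), the only call among 5 transporters of that list counted. Slc16a7 (MCT2), which entered the fit only through SFZ, ran from 1.57 to 2.58 FPKM in SFZ and from 0.39 to 1.44 FPKM in DZ. Pfkfb3, which makes the phosphofructokinase activator fructose 2,6-bisphosphate, averaged 6.53 FPKM in SFZ and 16.8 FPKM in DZ (log2 difference 1.19, SE 0.19, adjusted p = 0.00267). Pfkfb4 was lower (-0.31, adjusted p = 0.0213), the other call among 4 genes of that list counted. Of 4 other hexose transporters counted, Slc2a10 was higher (0.30, adjusted p = 0.0303). Slc2a6, which entered only through SFZ, ran from 0.3 to 1.82 FPKM in SFZ and from 0.15 to 0.74 FPKM in DZ.

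Entry of pyruvate into the mitochondrial pathway was represented by 10 genes counted, of which 1 was higher in DZ and 2 were lower. Among all genes so counted 4.14% were higher and 17.3% lower, so the 2 lower calls are near that share. Pdk1, a kinase that inhibits pyruvate dehydrogenase, averaged 10.5 FPKM in SFZ and 16.1 FPKM in DZ (log2 difference 0.58, adjusted p = 0.0237). Pdha1, a catalytic subunit of the complex, averaged 84.8 and 60.8 FPKM (-0.48, adjusted p = 0.0115), and Pdp1, a phosphatase that activates it, 18.2 and 3.88 FPKM (-1.85, SE 0.38, adjusted p = 0.00697). Pdk4, another of the inhibiting kinases, was at most 1.5 FPKM in SFZ and 0.65 FPKM in DZ and entered the fit only through SFZ. Of 8 pentose phosphate genes Rpia was lower (-0.71, SE 0.13, adjusted p = 0.00458) and 0 were higher. Of 3 gluconeogenesis genes counted 0 were called. Fbp1, which entered only through DZ, averaged 0.468 FPKM in SFZ and 1.56 FPKM in DZ. Of 9 glycogen genes 3 were higher, Gys1 (0.79, adjusted p = 0.0157), Pgm2 (0.85, adjusted p = 0.00364) and Pygl (1.52, adjusted p = 0.0326). The other 3 calls in that list were lower, Gyg (-1.07, adjusted p = 0.00962), Pgm1 (-0.40, adjusted p = 0.0463) and Pygb (-0.60, adjusted p = 0.0386).

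Regulators of the pathway included the alpha subunits of hypoxia-inducible factor. Hif1a, whose protein is stabilised at low oxygen, averaged 91.1 ± 20.7 FPKM in SFZ and 166 ± 33.4 FPKM in DZ (SD, n = 6 each; log2 difference 0.87, SE 0.16, adjusted p = 0.00407). Epas1, which encodes HIF-2 alpha, averaged 6.40 and 3.27 FPKM (-0.84, adjusted p = 0.00709). The transcripts of the pair of HIF alpha subunits thus differed between zones in opposite directions. Among 11 regulators tested, Egln1 (0.42, adjusted p = 0.0295) and Hif1an (0.24, adjusted p = 0.0123) were also higher and Egln2 was lower (-0.25, adjusted p = 0.0492). Of 13 known targets of hypoxia outside glycolysis counted, 6 were higher in DZ and 0 lower, where 4.14% of all genes so counted were higher and 17.3% lower. Bnip3, which acts in removal of mitochondria, averaged 48.6 FPKM in SFZ and 137 FPKM in DZ (1.49, SE 0.26, adjusted p = 0.00332). The other 5 were Higd1a (0.98, adjusted p = 0.00273), P4ha2 (0.94, adjusted p = 0.00511), Car12 (0.91, adjusted p = 0.00855), Ero1l (0.71, adjusted p = 0.0353) and P4ha1 (0.40, adjusted p = 0.00995). The rest of the targets counted did not pass and went in both directions, with adjusted p from 0.108 to 0.948. Differences were positive for Ddit4 (0.31), Bnip3l (0.23), Vegfa (0.05) and Ndrg1 (0.02). They were negative for Kdm3a (-0.22), Car9 (-0.28) and Adm (-1.06). In all, of 78 genes of these lists counted, 18 were higher and 9 lower, against the same 4.14% and 17.3%. The counts were 23 and 5 both with quantile normalization and with size factors, 21 and 14 with the replicate block, 18 and 6 with no filter, and 10 and 4 without both libraries that stood apart. With 1 library left out 13 to 20 were higher and 5 to 9 lower. The calls lost without both libraries were those of Slc2a10, Pdk1, Gys1, Pygl, Egln1, Hif1an, Car12 and Ero1l among the higher genes and Pfkfb4, Pdha1, Pygb, Pgm1 and Egln2 among the lower. Another 7 genes of the lists were tested through 1 zone alone and are not in these counts.

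Between genotypes 0 genes of these lists passed the adjusted threshold in either zone. The largest differences in DZ included Slc2a5, a fructose transporter (-1.09), Aldoc (-0.82), Pygl (-0.80), Adm (0.81) and Epas1 (0.73, SE 0.19), all log2 and R3-cKO minus R3-Cntl, by limma with an adjusted p of 0.999. In SFZ they included Aldoc (0.59), Slc16a3 (-0.58) and Ldhb (0.54). Slc16a3 had a negative difference in DZ too (-0.52). Of 13 hypoxia targets tested between genotypes in DZ, 11 had a negative difference and 2, Adm and Kdm3a, a positive one. Their median was -0.36, against 0.05 over all genes tested. Hif1a differed by -0.43 in DZ (SE 0.17, adjusted p = 0.999 by limma).

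Outside all lists, the 5 genes with a pattern most like the mean of the 10 standardised genes were taken over the 12 libraries. The Pearson r was 0.958 for Mif, 0.956 for Grpel1, 0.952 for Fam162a, 0.951 for Trpv4 and 0.945 for Prr5, among 5828 genes compared. All points share the libraries and their zone difference, so these values are a description. Mif, a cytokine, ranged from 182.37 to 374.05 FPKM in SFZ and from 349.09 to 704.68 FPKM in DZ. Trpv4, a calcium channel that responds to mechanical and osmotic stimuli in chondrocytes, ranged from 17.2 to 59.06 FPKM in SFZ and from 56.64 to 111.27 FPKM in DZ. For both genes the lowest SFZ value was in R3-cKO library 3 and the lowest DZ value in R3-Cntl library 3, as for most of the 10 genes.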

How the data were processed

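The 12 libraries were sequenced by the authors as 100-bp paired-end reads and mapped to mm9, and the submitters' processing notes name Bowtie 0.12.2. The authors deposited 1 value per gene and library, which behaves as FPKM scaled by TMM, and the unit was inferred. Read counts were not used here. Values were analysed as log2(FPKM + 1), a pseudocount of 1, in R 4.3.3 with limma 3.58.1, with a filter that kept genes reaching 1 FPKM in 3 or more of the fitted libraries, and all 10 genes described passed this filter in each comparison. A linear model with a trended empirical Bayes variance was fitted to the whole table for genotype within zone, zone within genotype, zone over all 12 libraries with genotype as a term, and their interaction. P-values were adjusted by Benjamini-Hochberg over all genes tested, and genes were called at an adjusted p under 0.05. Exact two-sided permutation tests of single values used all arrangements, within genotype for the zone. The fits were tested on simulated data. Python 3.11.15, pandas 2.3.3, NumPy 2.4.6 and Matplotlib 3.10.9 were used for sums, shares, promoters and plots.

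The study names 3 individual littermate mice for a group, and which animals gave both zones is not given in the sources used here. Same-number libraries were correlated after removal of group means over 11359 genes. The correlations were 0.65, 0.78 and 0.69 for genotype in DZ and 0.42, 0.78 and 0.65 for zone in R3-cKO, so the numbers were taken to pair these libraries.

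The genes and lists were chosen with earlier results of these data known. Named are the 10 genes, Runx3, Ddx3y, Gapdh, the marker lists, the genes of the pathway lists past the adjusted threshold or with the largest difference, and the 5 most similar genes averaging 10 FPKM or more. The hypoxia targets counted that did not pass are named too. As alternatives the filter was dropped or raised to an average of 10 FPKM, the pseudocount was 0.1 or 5, scaling was by quantiles or by median-of-ratios size factors, and the replicate number entered as a block. One fit held all 12 libraries, every library was omitted once, and isozyme families were cut to 2 genes. Gene positions are from GENCODE vM1 on mm9, and 10 of 10 genes matched.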

Additional observations from a re-analysis of the deposited data

How the results depend on the processing

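The values are limited by 3 libraries a group and by an inferred unit. Depth could be estimated only from the spacing of low values. For the zone over both genotypes, 6 genes of the 10 passed with no filter, with an average of 10 FPKM or more, with either pseudocount and with the replicate block, 7 with quantile normalization, 8 with size factors, 4 to 7 with 1 library left out, and 1 without R3-Cntl SFZ library 2 and R3-cKO SFZ library 3, an alternative chosen after seeing the data. Calls among all genes numbered 2725, and 1162 at an average of 10 FPKM or more, where fewer genes were tested, 986 without both libraries, 3965 with the block, and 1624 to 2899 with 1 library left out. The cause of the other changes was not tested.

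For the zone in R3-Cntl the calls numbered 140, and 0 with no filter, 8 at that average, 88 and 29 with pseudocounts of 0.1 and 5, 4 with quantile normalization, 17 with size factors, 831 (150 higher and 681 lower) with the replicate block, 798 with all 12 libraries in one model and 0 to 505 with 1 left out. In R3-cKO they numbered 2, and 7 with no filter, 0 at that average, 1 with either pseudocount, 352 (67 higher and 285 lower) with the block, which called 1 of the 10 genes, 165 with all libraries in one model and 0 to 5 with 1 left out. Genotype and interaction calls were 0 under every alternative, with 1830 genes at an unadjusted p under 0.05 in DZ under the paired fit and a lowest adjusted p of 0.0587. The block changed no other call on the 10 genes. Same-number correlations were 0.79, -0.09 and -0.42 for genotype in SFZ and 0.58, 0.11 and -0.15 for the zone in R3-Cntl. R3-Cntl SFZ library 2 correlated best with number 3 of the other group (0.45 for genotype, 0.38 for zone) and library 3 with number 2 (0.69 and 0.58). The block used the numbers as given, and an exchange of these numbers was not tested. In the pathway lists 27 genes were called, and 31 when genes tested through 1 zone alone were also counted, an alternative chosen after seeing the data.

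Reversals were found only among differences that passed no test. Without both libraries the SFZ genotype difference (log2) was 0.043 for Slc2a1 and 0.21 for Pkm, the zone difference of Gpi1 was -0.015, and the interaction was -0.065 for Hk2, -0.14 for Pkm and -0.11 for Ldha. Quantile normalization gave 0.059 for the DZ genotype difference of Aldoa, 0.026 for the R3-cKO zone difference of Hk1 and interactions of -0.020 for Hk2, 0.033 for Pgk1 and 0.16 for Eno1. Size factors gave 0.064 for the same difference of Hk1 and -0.0087 for the interaction of Hk2, which was -0.0088 with a pseudocount of 5.

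With 1 library left out, genotype in SFZ ranged from -0.34 to 0.15 for Slc2a1, -0.13 to 0.052 for Gpi1, -0.27 to 0.27 for Pkm, -0.48 to 0.081 for Pfkl, -0.57 to 0.20 for Pgk1, -0.52 to 0.15 for Eno1 and -0.56 to 0.098 for Ldha. Genotype in DZ ranged from -0.66 to 0.071 for Slc2a1, -0.24 to 0.083 for Aldoa, -0.28 to 0.058 for Ldha, -0.043 to 0.15 for Pkm and -0.12 to 0.029 for Hk1. The zone difference ranged from -0.0028 to 0.18 for Gpi1 in R3-Cntl, -0.026 to 0.15 for Gpi1 and -0.14 to 0.016 for Hk1 in R3-cKO, and -0.013 to 0.068 for Hk1 over both. The interaction ranged from -0.25 to 0.27 for Hk2, -0.13 to 0.059 for Gpi1, -0.33 to 0.23 for Pfkl, -0.44 to 0.33 for Pgk1, -0.36 to 0.31 for Eno1, -0.21 to 0.45 for Ldha, -0.53 to 0.20 for Slc2a1 and -0.20 to 0.34 for Pkm. The zone difference in the share of Aldoa ranged from -0.11 to 0.78 percentage points. Isozyme shares passed for 4 families, for 3 with families of 2 genes and for 3 without both libraries.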
